A study of Mus musculus with 12 samples.

Results

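The comparison of leukaemias with and without MBD2 rests on 6 of the 12 arrays in the series. Members were chosen by sample title: the 3 samples titled T-ALL MBD2-/- were set against the 3 titled T-ALL Control. RNA of each sample was hybridised to a mouse Affymetrix array, and the members' features were all probe sets that the array annotation ties to 1 gene. Outside the X and Y chromosomes these were 33798 of 45101 probe sets, and 14949 genes passed the filter on low values. Each of the 6 samples was GFP+ bone marrow leukaemia cells, sorted from mice that had received transplanted cells once GFP+ cells passed 50% of the white blood cells in blood. Controls were labelled MBD2 wild type and the others MBD2 deletion, and the study's design text names Notch1 as the driver of the leukaemias. The other 6 arrays held sorted CD4+CD8+ thymocytes from steady-state mice, 3 MBD2 wild type and 3 MBD2 deletion, and served here only to place a level beside normal thymocytes. The labels give neither strain, age, sex nor the number of donors or recipients. They do not say whether the samples of a group came from separate primary leukaemias, so every p-value here rests on the spread of 3 samples a group, which may be technical.

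MBD2 is a nuclear protein that binds DNA methylated at CpG pairs and brings the NuRD complex, which removes acetyl groups from histones and repositions nucleosomes, so it is studied as a link between methylation and silencing. T-cell acute lymphoblastic leukaemia (T-ALL) arises from immature thymocytes, and mutations that switch on NOTCH1 are its commonest driver. Thymocytes pass through double-negative stages (DN2, then DN3, at which the pre-T-cell receptor is tested) and then a CD4+CD8+ double-positive stage, while a minor branch makes gamma-delta T cells.

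The targeted gene followed the labels. Mbd2 read 957, 742 and 762 on the wild-type leukaemia arrays and 41.4, 55.7 and 66.04 on the knockout arrays, in the order of replicates 1, 2 and 3, in the linear intensity that the authors deposited (log2 difference −3.58, SE 0.17, adjusted p = 3.16e-05). Wherever 6 values of a gene follow each other, the first 3 are wild-type and the last 3 knockout leukaemias. All log2 differences are knockout minus wild type on log2(intensity + 16), tested with limma, and a gene was called at a Benjamini-Hochberg adjusted p under 0.05 over all 15420 genes tested. Control probe sets with no target in mouse RNA read up to 35.3, and levels at or under it cannot be told from background. For a gene at or under it on every array of a group, the fold is given as a lower bound against that level. Sex and genotype cannot be told apart: Xist ran from 3846 to 4819 in wild-type and from 32.1 to 40.8 in knockout leukaemias, and the Y-linked Kdm5d from 4.96 to 5.29 and from 172 to 179. Arrays also fell into 2 sets by the poly-A control transcripts, which gave signal on wild-type 1, wild-type 2 and knockout 1 and not on the other leukaemia arrays. Gapdh gave a 3' over 5' ratio of 0.964 to 1.02 where that signal was present and 2.00 to 2.98 where it was not. Correlations between arrays of all genes ran from 0.983 to 0.993 within wild-type leukaemias, from 0.980 to 0.986 within knockout leukaemias and from 0.927 to 0.943 between them.

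The labelled lineage was checked on markers. The CD3 chain gene Cd3d read 6707, 6742 and 5290 in wild-type and 8814, 6127 and 6905 in knockout leukaemias, and 3 of 9 T-lineage markers were lower in the knockout (Thy1, Cd2 and Ptcra). Mast cell and basophil markers summed to 157 to 178 on wild-type and 7454 to 8479 on knockout arrays, of which Cpa3 made up nearly all, while Mcpt1, Mcpt2, Mcpt4, Tpsb2, Fcer1a, Ms4a2 and Cma1 were below the control level on all 6. Of that list, 3 of 5 tested markers were higher: Cpa3, Hdc and Mcpt8, the last of which lost its call without 5 of the 6 arrays in turn (wild-type 1, 2 and 3, knockout 1 and knockout 3; adjusted p up to 0.142). NK cell markers summed to 88.1 to 95.0 and 251 to 403, with Ncr1, Klre1 and Klra1 below the control level on all 6 arrays. Neutrophil markers summed to 1106 to 1996 in wild-type and 242 to 887 in knockout leukaemias. B-lineage markers summed to 161 to 178 and 190 to 207, with 5 of 7 below the control level on all 6 arrays (Cd79a, Ebf1, Pax5, Ms4a1 and Igll1). Monocyte and macrophage markers summed to 306 to 341 and 216 to 268, erythroid ones to 310 to 330 and 229 to 289, megakaryocyte ones to 270 to 317 and 435 to 513, and stromal and endothelial ones to 254 to 363 and 347 to 353. The part of such cells in the results was not tested, and in bulk RNA fewer cells of a type and less RNA per cell cannot be told apart.

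**Figure D1:**
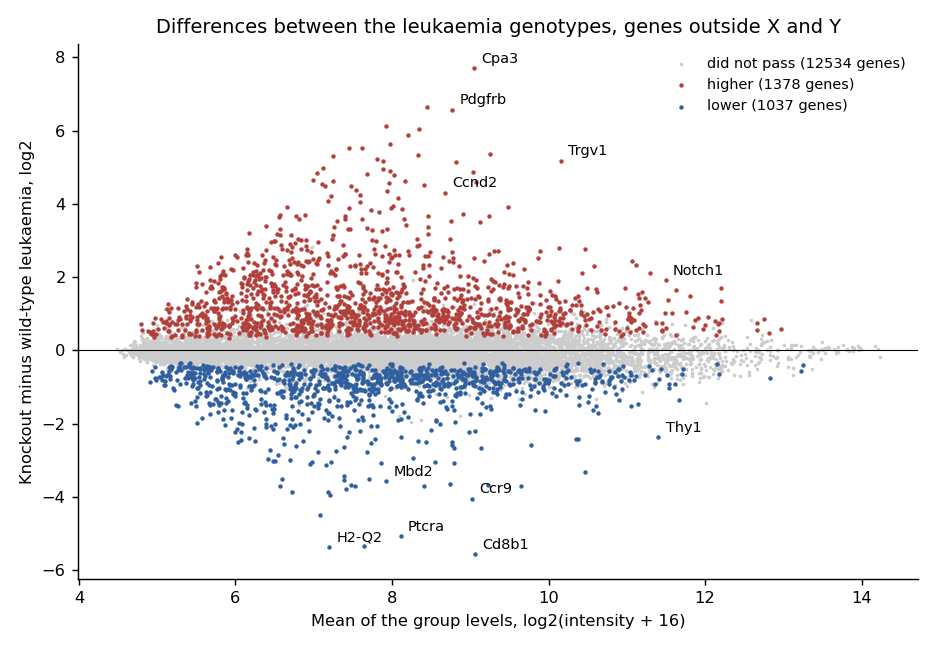
Log2 difference (knockout minus wild-type leukaemia) of each of 14949 genes outside X and Y against its mean level in the 2 groups, log2(intensity + 16); red genes were called higher, blue lower, grey did not pass. Gains reach further from 0 than losses, with Cpa3 at 7.70 and Cd8b1 at −5.57 as the ends of the range.

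Knockout leukaemias differed from wild-type leukaemias in 16.2% of the 14949 genes tested outside X and Y. Of these 1378 were higher (9.22%) and 1037 lower (6.94%). Gains were larger than losses: the median size was 1.11 log2 for genes called higher and 0.84 for genes called lower, 259 rose and 89 fell at least 4-fold, and 40 rose and 6 fell at least 16-fold. Among the higher genes 301 were at or under the control level on every wild-type array, and among the lower genes 197 were so on every knockout array. These include 23 higher and 30 lower genes that were so on all 6 leukaemia arrays, where levels cannot be told from background. The 2 groups did not overlap in 33.4% of all genes tested. Fits with the replicate number as a block called 1878 higher and 1880 lower. Centring arrays on their 75th percentile gave 1319 higher and 1604 lower, so that higher genes made up 45.1% of the calls in place of 57.1%. Without wild-type 2 the calls numbered 853 higher and 517 lower, and without wild-type 1 the lower calls numbered 584. Within the 3 arrays with poly-A signal, of which 1 is knockout, 1655 were higher and 1439 lower. Within the 3 without it, of which 1 is wild-type, limma called 0, with 1968 genes at an unadjusted p under 0.05. In each of these fits the lone array of a group was assumed to vary like the pair of the other.

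The gene with the largest gain was Cpa3, for a carboxypeptidase stored in mast cell granules that early thymic progenitors also transcribe. It read 24.2, 19.8 and 18.1 on the wild-type and 6912, 7885 and 8070 on the knockout arrays, at least 216-fold higher, and 20.4, 25.2 and 19.9 on the wild-type thymocyte arrays. Cd93, a surface glycoprotein of haematopoietic progenitors and endothelium, read 20.3, 17.5 and 18.6 against 3386, 3344 and 3634 (at least 97.9-fold). Both were at background in wild-type leukaemias and wild-type thymocytes alike or close to it, and both were within a narrow range on the 3 knockout arrays.

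Growth factor receptors and secreted ligands were among the largest gains. Pdgfrb, a receptor for platelet-derived growth factor, read 38.7, 18.7 and 28.96 and then 3822, 4968 and 3856 (log2 6.57, SE 0.19, adjusted p = 6.34e-06). Tgfb2, a ligand of the TGF-beta receptors, read 11.5, 12.8 and 14.7 and 2231, 1790 and 2065 (at least 57.3-fold). Angpt1, the ligand of the receptor TIE2, read 10.6, 10.03 and 8.41 and 1079, 1270 and 1185 (at least 33.3-fold), with 96.5, 115 and 124 in wild-type thymocytes. F2r, the main thrombin receptor, went from 76.3, 53.6 and 112 to 3580, 3701 and 4174 (log2 5.35, SE 0.22, adjusted p = 1.8e-05). In all 4 the lowest knockout array lay more than 10-fold above the highest wild-type array.

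Nuclear factors, several of them known from early progenitors, were also among the largest gains. The homeobox gene Hhex read 17.1, 30.7 and 24.3 in wild-type and 2865, 3057 and 1959 in knockout leukaemias (at least 73.2-fold). Lyl1, a helix-loop-helix factor that can drive T-ALL, went from 69.99, 51.6 and 57.7 to 2409, 2516 and 3021 (log2 5.14, SE 0.14, adjusted p = 4.52e-06), and Nfe2, a factor of megakaryocyte and erythroid genes, from 31.5, 20.7 and 26.9 to 1317, 1303 and 1266 (at least 36.7-fold). Tsc22d1, a leucine-zipper gene first found as a TGF-beta target, went from 57.4, 80.4 and 108 to 3200, 2745 and 2452 (log2 4.87, SE 0.21, adjusted p = 2.07e-05). The LIM-domain gene Lmcd1 read 39.3, 26.1 and 34.3 and 2263, 2767 and 1206 (log2 5.34, SE 0.30, adjusted p = 7.47e-05).

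Genes of cytotoxic and innate-like lymphocytes made up another group. The granule protease gene Gzmb read 16.7, 21.6 and 29.7 in wild-type and 2067, 2275 and 2392 in knockout leukaemias (at least 63.6-fold), and Nkg7, a granule membrane protein, 23.8, 24.4 and 21.2 and 1733, 1204 and 1318 (at least 39.7-fold). Variable segments of the T-cell receptor gamma chain rose as well: Trgv4 read 17.4, 20.3 and 21.3 and 1713, 1887 and 1703 (at least 50.1-fold), and Trgv1 280, 157 and 102 and 6382, 7569 and 5879 (log2 5.18, SE 0.32, adjusted p = 0.000105). Wild-type thymocytes carried 110, 60.1 and 39.03 of Trgv4 and 60.2, 40.3 and 47.9 of Trgv1. Gamma segments are close in sequence, so a probe set may read more than 1 of them. Which rearranged segments the leukaemias carried was not tested.

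The other large gains were of mixed roles. Naip5, a cytosolic sensor of bacterial flagellin, read 9.64, 7.03 and 6.45 and 902, 1329 and 640 (at least 26-fold), although close copies of the Naip genes could share its probe set. Ifitm2, which restricts virus entry, read 14.02, 9.73 and 13.8 and 1696, 1119 and 1164 (at least 36.9-fold). The peptide transporter gene Slc15a2 read 23.7, 16.8 and 19.8 and 1408, 1805 and 926 in the leukaemias (at least 37.7-fold) and 2349, 2194 and 985 in wild-type thymocytes, so that the wild-type leukaemias were the low group. Wild-type thymocytes were also above wild-type leukaemias for F2r (336, 239 and 457) and Tsc22d1 (938, 689 and 1266). Garem1, an adaptor of growth factor signalling, read 9.51, 8.19 and 7.93 and 700, 962 and 658 (at least 21.6-fold), and the gluconeogenic enzyme gene Fbp1 40.2, 34.5 and 17 and 1251, 1512 and 1277 (log2 4.90, SE 0.21, adjusted p = 2.07e-05).

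The largest losses included genes of the thymocyte surface. Cd8b1, the CD8 beta chain, read 4631, 3825 and 2442 on the wild-type and 101, 42.4 and 43.9 on the knockout leukaemia arrays (log2 −5.57, SE 0.34, adjusted p = 9.88e-05), and Cd8a read 3082, 2982 and 2123 and 388, 135 and 132. Ptcra, the invariant chain of the pre-T-cell receptor, went from 1737, 1633 and 1380 to 40.7, 25.7 and 28.5 (log2 −5.08, SE 0.15, adjusted p = 6.72e-06). The thymus-homing chemokine receptor gene Ccr9 read 1766, 1740 and 2693 and 146, 62.4 and 133, and the adhesion receptor gene Cd2 2800, 2517 and 1150 and 172, 95.6 and 178. For all 5 genes the groups were far apart, although wild-type 3 was the lowest wild-type array for each except Ccr9. Nrp1, a co-receptor for semaphorins and VEGF, fell from 489, 564 and 655 to 19.8, 24.1 and 20.5 (at least 16-fold).

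H2-Q2, a class Ib major histocompatibility gene, was lost to background. It read 453, 994 and 1506 on the wild-type and 5.23, 5.69 and 5.82 on the knockout leukaemia arrays (at least 24.9-fold lower), while wild-type thymocytes read 406, 584 and 314 and knockout thymocytes 586, 1003 and 491. Genes of this family are near copies, so which of them its probe set reads is uncertain. The wild-type arrays were spread widely, with wild-type 1 the lowest, whereas the 3 knockout arrays were all far below the control level.

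Genes of the cytoskeleton, lysosome and membrane transport were among the other top losses. The cortical actin regulator gene Cttn read 1043, 1035 and 1735 and 15.3, 14.9 and 15.04 (at least 35-fold lower), against 212, 152 and 265 in wild-type thymocytes. The desmosome gene Dsp read 177, 394 and 447 and 10.4, 9.59 and 8.10 (at least 8.93-fold lower) and was at background in wild-type thymocytes (8.43, 9.90 and 7.16). The lysosomal protease gene Ctsl read 651, 572 and 403 and 30.1, 18.02 and 17.2 (at least 15.1-fold lower), the zinc transporter gene Slc30a4 583, 622 and 645 and 32.8, 26.7 and 30.6 (at least 17.5-fold) and the amino acid transporter gene Slc36a4 475, 367 and 325 and 11.7, 11.3 and 12.03 (at least 10.9-fold). The ectoenzyme gene Bst1 went from 640, 614 and 414 to 44.1, 27.6 and 27.1 and was at background in wild-type thymocytes (14.1, 12.8 and 14.2), as was the cytochrome gene Cyb561, which went from 352, 329 and 254 to 11.5, 12.2 and 13.98 (at least 8.76-fold lower). The remaining members were Reep1, Rgcc, Rbms1, Arsi and Gpr25, with log2 differences from −3.70 to −3.50. Each of the 40 named gains and losses was called again when any of the 6 arrays was left out. So it was under every other alternative except the fits within 1 set of poly-A arrays. These 40 were chosen for the size of their change in these data. Gm266, left out of the 40 for its clone-type name, fell from 606, 789 and 498 to 14.6, 12.8 and 9.95 (at least 17.6-fold).

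**Figure D2:**
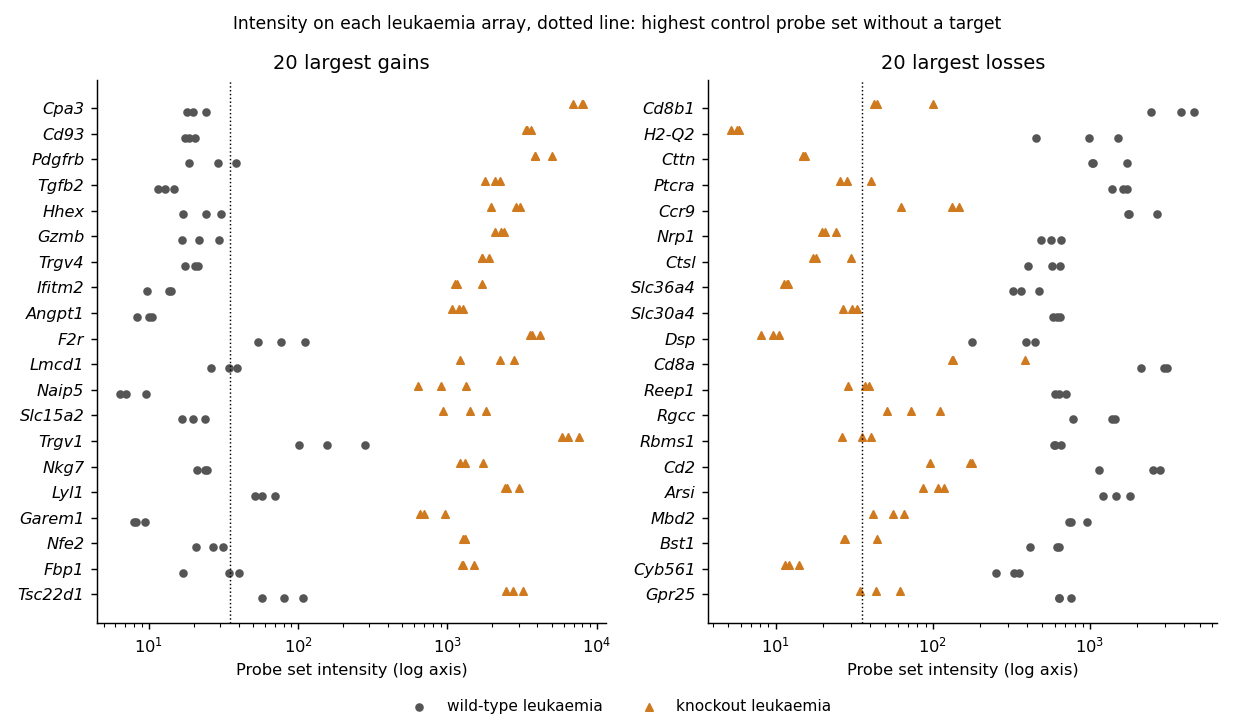
Intensity (log axis) on each leukaemia array of the 20 largest gains and 20 largest losses among genes without clone-type names (such as Gm or Rik symbols). Grey circles are wild-type, orange triangles knockout, and the dotted line is the control level of 35.3. On this scale 13 of the gained genes sit left of the line on all 3 wild-type arrays.

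Of the 8 genes at the ends of the list (4 gains and 4 losses), RefSeq promoter entries that could be printed existed for Cpa3, Tgfb2, H2-Q2 and Ptcra. The 250 bases before each start are given 5′ to 3′ on the strand of the gene, in build GRCm38.p6, because MBD2 binds methylated CpG pairs and these windows differ in how many they hold. CpG pairs are in capitals.
Cpa3, chr3:20242182-20242431, minus strand: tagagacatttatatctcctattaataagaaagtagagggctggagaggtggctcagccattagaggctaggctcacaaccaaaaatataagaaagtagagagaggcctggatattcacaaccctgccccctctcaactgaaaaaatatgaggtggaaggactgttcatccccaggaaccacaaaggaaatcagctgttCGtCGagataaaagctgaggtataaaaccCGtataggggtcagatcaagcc
Tgfb2, chr1:186705990-186706239, minus strand: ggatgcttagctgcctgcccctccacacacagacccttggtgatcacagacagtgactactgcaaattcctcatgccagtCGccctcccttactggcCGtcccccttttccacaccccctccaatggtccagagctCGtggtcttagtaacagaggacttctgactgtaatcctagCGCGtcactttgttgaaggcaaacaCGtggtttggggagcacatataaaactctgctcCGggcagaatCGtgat
H2-Q2, chr17:35342057-35342306, plus strand: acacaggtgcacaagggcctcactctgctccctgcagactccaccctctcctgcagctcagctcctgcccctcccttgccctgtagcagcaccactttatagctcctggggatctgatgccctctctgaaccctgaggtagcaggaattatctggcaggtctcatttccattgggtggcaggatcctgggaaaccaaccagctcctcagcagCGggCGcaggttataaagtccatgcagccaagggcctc
Ptcra, chr17:46763713-46763962, minus strand: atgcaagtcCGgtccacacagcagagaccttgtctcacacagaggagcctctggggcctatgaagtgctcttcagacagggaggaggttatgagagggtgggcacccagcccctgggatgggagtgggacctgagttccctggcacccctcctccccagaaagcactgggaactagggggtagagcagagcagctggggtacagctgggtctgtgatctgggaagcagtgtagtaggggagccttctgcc
The window of Tgfb2 held 8 CpG pairs, that of Cpa3 3, that of H2-Q2 2 and that of Ptcra 1. With the 50 bases after the start included the counts were 10, 3, 4 and 1, where the median over the 32851 windows of 300 bases in the table was 7 (quartiles 3 and 20). In the 300 bases, the letters TATAAA, which 13.6% of all windows held, were found for Cpa3, Tgfb2 and H2-Q2. The letters AGATAA, a motif that GATA factors bind (11.2%), were found for the same 3 genes. CAGCTG, an E-box (16.3%), was found for Cpa3 and Ptcra. The RBPJ motif GTGGGAA (6.4%) and the ETS motif ACTTCCGG (3.9%) were in none of the 4 windows. Both strands were searched, overlapping matches were allowed, and a match describes letters only. DNA methylation was not measured. A comparison of CpG content between all genes that rose and all tested was not made. Promoter entries existed for 78.6% of the former and 79.3% of the latter.

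Genes of thymocyte stages did not move as a block. The early progenitor and DN2 list had 12 of 26 tested members higher and 2 lower, the DN3 list 9 of 22 higher and 2 lower, and the double-positive list 2 of 27 higher and 9 lower (median log2 0.02, 0.60 and −0.09, against −0.06 over all genes). Gamma-delta and innate-like T cell genes had 14 of 21 higher and 0 lower, at a median of 1.01. Each list was set against the background of 9.22% higher and 6.94% lower. The gamma-delta count was 11 to 13 with an array left out, the progenitor count stayed at 12 and the count of double-positive genes that fell at 8 to 10, but the DN3 count was 3 to 8, moving by more than 1.5 times without wild-type 1, 2 or 3 or knockout 1 or 2. Lists were chosen with earlier results of these data known.

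Progenitor genes that rose included several nuclear factors. Besides Cpa3, Cd93, Hhex, Lyl1 and Nfe2, the LIM-only factor gene Lmo2 went from 64.7, 51.9 and 55.2 to 818, 1159 and 1175 (log2 3.85, SE 0.16, adjusted p = 2.07e-05), and the ETS factor gene Erg from 34.4, 25.5 and 24.6 to 1051, 627 and 800 (at least 22.9-fold). Kit, the stem cell factor receptor gene, read 21.9, 32.3 and 35.2 and 724, 1230 and 450 (at least 20.9-fold), with knockout 2 the highest and knockout 3 the lowest. Gata2 went from 36.2, 45.5 and 50.3 to 148, 148 and 112 (log2 1.34, SE 0.15, adjusted p = 0.00121). No wild-type thymocyte array exceeded 40.8 for Lyl1, Lmo2, Hhex, Nfe2 or Erg. In contrast 2 of the 26 members were lower and 12 did not pass. Among those that did not pass was Igll1 (27.4, 34.1 and 28.5 and 29.2, 29.6 and 29.9), which stayed at the control level.

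Among DN3 genes Notch1 and its targets Hey1 and Nrarp rose, and Ptcra, also a Notch target, fell. Notch1 itself read 1614, 1411 and 1346 in wild-type and 6369, 6435 and 4188 in knockout leukaemias, so that knockout 3 was the lowest of its group. Notch1 is the driver that the design text names. Whether its probe set reads a driver transcript beside that of the gene itself was not tested. The Notch target Hey1 read 30.4, 41.02 and 44.8 and 892, 802 and 354, also lowest on knockout 3. Nrarp, a Notch feedback inhibitor, read 750, 624 and 548 and 2162, 2171 and 1066, again lowest on knockout 3 (log2 1.41, SE 0.29, adjusted p = 0.0184); its call was lost without wild-type 2 or 3 or knockout 1 or 2 (adjusted p up to 0.0788). Cd3e read 1910, 2273 and 2349 and 2337, 2361 and 3048 and did not pass (log2 0.24, SE 0.15, adjusted p = 0.35).

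Double-positive genes that fell included those of the co-receptors and other surface proteins. Besides Cd8b1, Cd8a, Ccr9 and Cd2, the surface gene Ly6d read 473, 370 and 389 and 30.1, 26.6 and 52.2 (log2 −3.05, SE 0.20, adjusted p = 0.000133), and Cd4 253, 300 and 260 and 92.2, 91.8 and 94.2 (log2 −1.39, SE 0.10, adjusted p = 0.000199). Both were higher in wild-type thymocytes, at 4998, 5235 and 2818 and 1654, 1886 and 1351, than in either leukaemia. The wild-type leukaemias were thus between thymocytes and knockout leukaemias for Cd4, Ly6d, Ccr9, Cd8a and Cd8b1, and above both for Ptcra.

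Gamma-delta and innate-like genes that rose covered receptors, kinases and nuclear factors. Blk, a SRC-family kinase of gamma-delta T cells and B cells, went from 48.4, 52.7 and 42.6 to 526, 860 and 556 (log2 3.34, SE 0.19, adjusted p = 8.78e-05), and Sox13, a factor of gamma-delta thymocytes, from 45.2, 55.4 and 83.6 to 696, 959 and 611 (log2 3.32, SE 0.23, adjusted p = 0.000173). Zbtb16, which encodes PLZF of innate-like T cells, read 12.2, 12.2 and 11.2 and 122, 139 and 234 (at least 4.49-fold). The NK receptor subunit gene Klrd1 read 18.1, 10.4 and 14.3 and 309, 315 and 175 (at least 7.30-fold) and Maf, a factor of gamma-delta and helper T cells, 32.7, 22.8 and 22.98 and 92.2, 87.9 and 98.7. Etv5, an ETS factor, rose from 374, 334 and 238 to 915, 1192 and 638 (log2 1.47, SE 0.26, adjusted p = 0.00961), and Cd244a, a receptor of the SLAM family, read 13.02, 16.1 and 15.3 and 45.7, 44.7 and 40.6 (at least 1.24-fold, adjusted p = 0.000843).

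**Figure D3:**
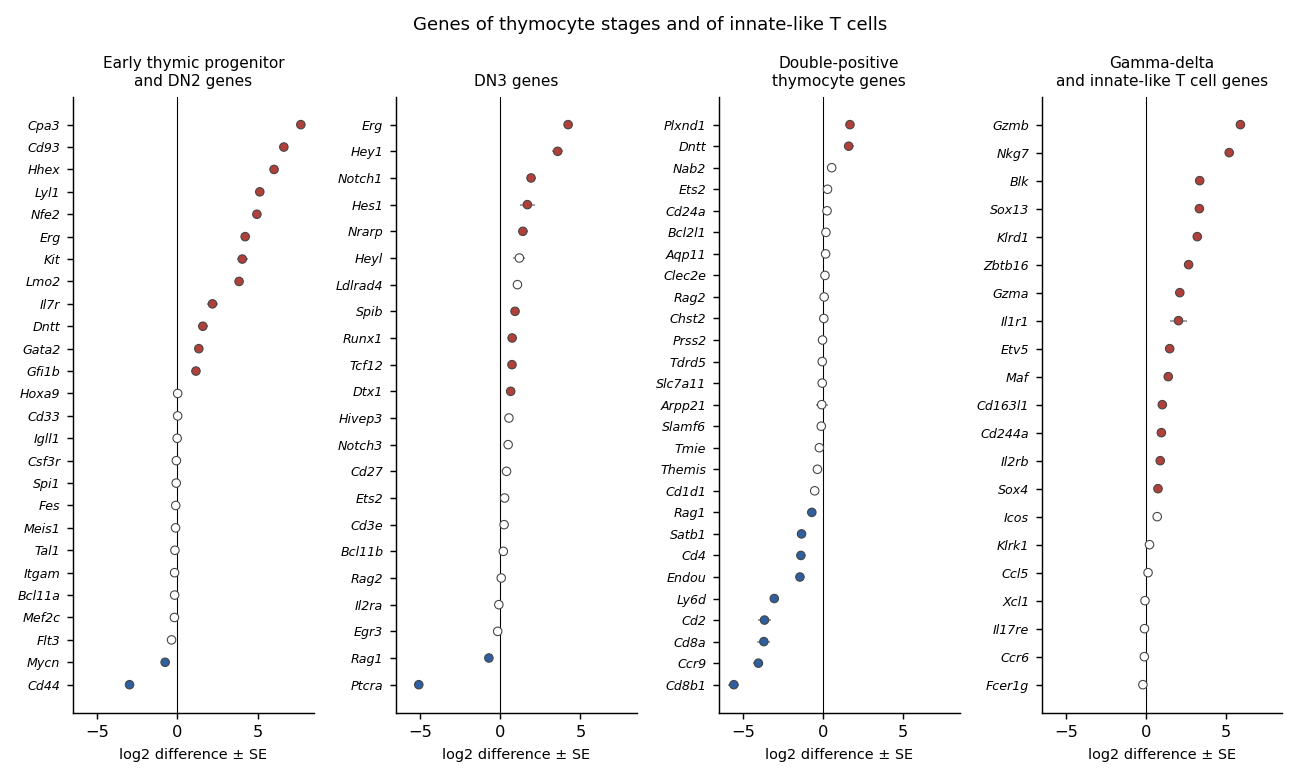
Log2 difference (knockout minus wild-type leukaemia, bars are the SE) of each tested member of 4 gene lists; red points were called higher, blue lower, white did not pass. Of 26 progenitor genes 12 were called higher, 2 lower and 12 did not pass. Of 21 gamma-delta and innate-like genes 14 were called higher and none lower.

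Genes that drive T-ALL when activated had 13 of 33 tested members higher and 1 lower (10 to 12 higher with an array left out). Ccnd2, a D-type cyclin gene, read 72.1, 74.7 and 79.8 in wild-type and 1603, 1707 and 2101 in knockout leukaemias (log2 4.30, SE 0.13, adjusted p = 6.34e-06), and Bcl2, which blocks mitochondrial apoptosis, 186, 179 and 162 and 966, 958 and 1064 (log2 2.40, SE 0.10, adjusted p = 2.07e-05). Lyl1, Hhex, Lmo2, Erg, Kit and Notch1 of this list are given above. The member that fell was Mycn, at log2 −0.76, and its call was lost without wild-type 2. Tumour suppressor genes of T-ALL had 5 of 29 higher and 0 lower, but 2 or 3 higher when any of the 6 arrays was left out. Of these Etv6, an ETS repressor gene, went from 374, 270 and 287 to 1543, 2071 and 1433 (log2 2.38, SE 0.18, adjusted p = 0.00025), and Gata3, which is required throughout T-cell development, from 550, 517 and 535 to 959, 1532 and 1310 (log2 1.20, SE 0.17, adjusted p = 0.00426).

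Families of transcription factors followed with few losses. RUNX, ETS and GATA factors had 9 of 23 higher and 0 lower (median log2 0.50). Elk3, an ETS factor of the serum response, went from 81.5, 59.4 and 65.4 to 339, 398 and 534 (log2 2.36, SE 0.19, adjusted p = 0.000275) against 349, 332 and 348 in wild-type thymocytes, so that the wild-type leukaemias were the low group. BTB zinc finger and BACH factors had 7 of 23 higher and 1 lower, or 4 higher without wild-type 2. Bach2, a repressor of effector genes in lymphocytes, read 26.1, 29.5 and 32.2 and 386, 436 and 774 (at least 14.4-fold), and Kbtbd11, a BTB and kelch gene, 678, 394 and 520 and 3561, 3810 and 3477 (log2 2.76, SE 0.19, adjusted p = 0.00017). MAF, AP-1, IRF and NFAT factors had 7 of 27 higher and 1 lower. Nfatc2, a calcium-dependent factor, went from 190, 123 and 147 to 441, 476 and 529 and Nfatc1 from 238, 201 and 223 to 620, 420 and 784 (log2 1.36, SE 0.22, adjusted p = 0.00673), while Irf8 rose from 71.5, 59.6 and 53.5 to 288, 168 and 151. Irf4 was the lower member, at 446, 387 and 442 and 220, 110 and 104 (log2 −1.53, SE 0.26, adjusted p = 0.00858).

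Nuclear receptors had 5 of 30 higher and 3 lower, or 3 higher without wild-type 1, 2 or 3 or knockout 1. Rora, which directs innate lymphoid and helper cell fates, read 26.5, 22.6 and 20.3 and 250, 271 and 328 (at least 7.98-fold), and Nr4a3, an early gene of receptor stimulation, 54.9, 63.04 and 62.6 and 137, 136 and 174. The vitamin D receptor gene Vdr fell from 301, 173 and 338 to 53.02, 57.02 and 64.5 (log2 −1.90, SE 0.23, adjusted p = 0.00209), and the mineralocorticoid receptor gene Nr3c2 from 67.4, 62.6 and 41.97 to 21.1, 18.1 and 23.6. KLF and SP factors had 1 of 16 in each direction, or 4 higher and 2 lower under the replicate block, and Klf16 was the lower one at 174, 179 and 146 and 93.9, 94.98 and 90.5. SOX and HMG factors had 4 of 19 higher, or 2 without wild-type 1 or 3 or knockout 2, and 1 lower. Besides Sox13, Tox, a factor of CD4 lineage commitment, rose from 195, 200 and 159 to 381, 343 and 435 (log2 1.00, SE 0.13, adjusted p = 0.00293).

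Receptor tyrosine kinases had 7 of 32 higher and 2 lower. Flt1, a VEGF receptor gene, went from 30.98, 41.6 and 45.9 to 287, 254 and 380 (log2 2.53, SE 0.18, adjusted p = 0.000178), and Mst1r, the receptor of macrophage-stimulating protein, read 20.4, 22.8 and 23.5 and 164, 138 and 126 (at least 4.02-fold). The insulin receptor gene Insr rose from 113, 106 and 115 to 339, 307 and 328 (log2 1.42, SE 0.09, adjusted p = 0.000135), against 439, 469 and 515 in wild-type thymocytes. Ephb6, a kinase-dead ephrin receptor of T cells, fell from 203, 185 and 146 to 71.3, 74.5 and 73.97 (log2 −1.11, SE 0.13, adjusted p = 0.00178) and was far higher in wild-type thymocytes (1190, 1616 and 817). Kdr and Csf1r did not pass, at 48.4, 64.9 and 56.1 and 42.3, 58.95 and 53.3 for Kdr and 71.9, 76.9 and 86 and 71.5, 70.3 and 64.7 for Csf1r.

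Genes of TGF-beta and BMP signalling had 9 of 33 higher and 0 lower, and 14 higher with the replicate number as a block. These included a ligand (Tgfb2), receptors and intracellular members. The co-receptor gene Tgfbr3 went from 110, 96.3 and 85.2 to 698, 1018 and 545 (log2 2.72, SE 0.23, adjusted p = 0.000343), the type I activin receptor gene Acvr1b from 552, 415 and 416 to 1188, 1240 and 1415 and the type II BMP receptor gene Bmpr2 from 364, 412 and 425 to 906, 898 and 861. Of the SMAD genes, Smad3, which carries the signal, went from 764, 665 and 625 to 1166, 1225 and 1192 (log2 0.79, SE 0.11, adjusted p = 0.00317), and Smad7, which inhibits it, from 88.1, 109 and 141 to 261, 245 and 292 (log2 1.15, SE 0.17, adjusted p = 0.00412).

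Regulators of Ras and MAP kinases had 12 of 37 higher and 0 lower (9 to 13 higher with an array left out). Several of them restrain the pathway. Spred1, an inhibitor of RAF activation, rose from 125, 140 and 155 to 434, 460 and 558 (log2 1.68, SE 0.13, adjusted p = 0.000279), the phosphatase gene Dusp5 from 460, 401 and 476 to 980, 1009 and 1237 and Dusp2 from 1332, 1162 and 834 to 3853, 3924 and 3004. The Ras GTPase-activating gene Rasa2 read 1336, 1025 and 1262 and 2651, 3402 and 2885, and the stress kinase gene Map3k5 59.4, 56.1 and 60.7 and 245, 216 and 320 (log2 1.87, SE 0.15, adjusted p = 0.000297).

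Cyclic AMP signalling had 11 of 27 tested genes higher and 1 lower, or 7 higher without wild-type 2. These were receptors, cyclases and phosphodiesterases alike. Ptger4, a prostaglandin E2 receptor gene, went from 74.9, 79.9 and 93.9 to 313, 311 and 423 (log2 1.87, SE 0.15, adjusted p = 0.000298), and the adenylyl cyclase gene Adcy9 from 56.5, 53.8 and 49.9 to 255, 196 and 213 (log2 1.77, SE 0.12, adjusted p = 0.000163). The phosphodiesterase genes Pde7a, Pde4d and Pde4b, which degrade cyclic AMP, went from 286, 189 and 244 to 1712, 1485 and 1753, from 67.6, 68.99 and 78.8 to 244, 266 and 288 and from 95.3, 66.5 and 84.7 to 535, 341 and 518. Crem, a cyclic AMP-responsive factor, rose from 24.6, 22.3 and 22.5 to 92.8, 98.2 and 110 (at least 2.84-fold, adjusted p = 0.000117). In wild-type thymocytes Ptger4 read 561, 642 and 928 and Pde4d 519, 543 and 466, above both leukaemia groups.

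Protein kinase C and diacylglycerol genes moved in both directions, 9 of 25 higher and 4 lower, or 5 higher without wild-type 2. Prkca rose from 124, 82.8 and 105 to 938, 988 and 686 (log2 2.88, SE 0.19, adjusted p = 0.00013) while Prkcb, the isoform of lymphocyte receptor signalling, fell from 2524, 2348 and 1832 to 885, 632 and 838 (log2 −1.49, SE 0.18, adjusted p = 0.00176). Phospholipase genes rose: Plcb4 from 23.1, 30.9 and 21.7 to 109, 134 and 136, Plcg1 from 696, 540 and 734 to 1691, 1585 and 1282 and Plcg2 from 145, 122 and 149 to 295, 274 and 284. The diacylglycerol kinase gene Dgke fell from 534, 645 and 434 to 182, 116 and 129 (log2 −1.81, SE 0.20, adjusted p = 0.00131). Ion channels and calcium genes were 6 higher and 5 lower of 39, with 3 lower without wild-type 1 or 2 or knockout 2. The purine-gated channel gene P2rx7 went from 210, 135 and 109 to 2077, 2070 and 1417 (log2 3.51, SE 0.25, adjusted p = 0.000193) and P2rx1 from 118, 123 and 113 to 61.9, 48.6 and 58.4 (log2 −0.89, SE 0.11, adjusted p = 0.00187). The calcium release channel gene Ryr2 read 6.83, 6.97 and 8.48 and 266, 211 and 142 (at least 5.67-fold), and the potassium channel gene Kcnk6 fell from 119, 74.02 and 91.97 to 11.7, 13.8 and 15.97 (at least 2.64-fold). G-protein and RGS genes had 7 of 38 higher and 5 lower, and as few as 3 in each direction with an array left out (3 higher without wild-type 1, 2 or 3, 4 higher without knockout 1, and 3 lower without wild-type 1 or knockout 1, 2 or 3). Gnb4 rose from 439, 494 and 484 to 1042, 1137 and 944 and Rgs14 fell from 515, 513 and 474 to 259, 263 and 264.

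Tetraspanins, membrane organisers with 4 spans, had 10 of 20 higher and 2 lower, although 5 were higher without wild-type 2 or knockout 1, and 6 without wild-type 1 or knockout 2. Cd53, a tetraspanin of leukocytes, went from 1152, 688 and 904 to 4895, 4945 and 4830 (log2 2.43, SE 0.18, adjusted p = 0.000228), Tspan2 from 43.01, 66.4 and 73.6 to 356, 651 and 376, and Tspan9 from 594, 433 and 415 to 1682, 2160 and 1454 (log2 1.84, SE 0.19, adjusted p = 0.00104). Cd82 read 739, 746 and 657 and 1650, 1299 and 1262 and Tspan4 46.4, 38.4 and 53.5 and 142, 166 and 318. The 3 knockout arrays lay close together for Cd53, above every wild-type leukaemia and every thymocyte array.

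Glycosyltransferases and galectins had 16 of 45 higher and 2 lower (11 to 14 higher with an array left out). Sialyltransferases were prominent: the polysialyltransferase gene St8sia4 went from 682, 642 and 689 to 3252, 3500 and 3459 (log2 2.31, SE 0.09, adjusted p = 1.5e-05), St6gal1 from 923, 710 and 710 to 2025, 2485 and 2116, and St3gal1 from 40.2, 46.1 and 36.2 to 136, 198 and 145. St6galnac3 read 22.2, 19.1 and 19.5 and 136, 165 and 112 (at least 3.86-fold). The chondroitin sulfotransferase gene Chst15 rose from 301, 325 and 278 to 1690, 1542 and 1499 (log2 2.33, SE 0.10, adjusted p = 2.72e-05), and Galnt3, which starts O-linked chains, read 14.1, 16.7 and 16.96 and 75.9, 76.1 and 115 (at least 2.48-fold). In the sphingolipid list (5 of 31 higher and 4 lower, or 2 lower without knockout 1, 2 or 3, and 9 higher under the block), Ugcg, the glucosylceramide synthase gene, rose from 490, 344 and 240 to 2538, 2819 and 1836 (log2 2.72, SE 0.27, adjusted p = 0.000856). The lysophosphatidic acid receptor genes Lpar6 and Lpar2 moved apart, Lpar6 from 271, 204 and 231 to 487, 601 and 511 and Lpar2 from 149, 102 and 127 to 45.7, 47.2 and 50.4.

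Ly6, SLAM and lectin receptors had 9 of 23 higher and 4 lower. Clec4e, a lectin that senses mycobacterial glycolipid, read 10.8, 10.3 and 9.37 and 239, 300 and 423 (at least 8.84-fold), and its neighbour in the family Clec4d 15.5, 21.4 and 20.4 and 156, 84.05 and 165 (at least 3.67-fold, adjusted p = 0.00144). Thy1, the pan-T-cell glycoprotein, fell from 6035, 6296 and 5970 to 958, 1083 and 1517 (log2 −2.37, SE 0.17, adjusted p = 0.000201), with 8842, 8912 and 8885 in wild-type thymocytes. Costimulatory and checkpoint receptors had 13 of 38 higher and 1 lower (9 to 13 higher with an array left out). Ligands of the TNF family rose, Tnfsf11 from 17.1, 12.4 and 19.4 to 89.2, 86.8 and 83.2 (at least 2.45-fold, adjusted p = 0.000151), Tnfsf14 from 37.2, 24.7 and 19.6 to 125, 113 and 150, and Tnfsf8 from 57.3, 47.2 and 45.7 to 94.5, 112 and 133. Lag3, an inhibitory receptor gene, went from 17.97, 28.1 and 21.1 to 79.4, 66.4 and 58.8 (at least 1.92-fold, adjusted p = 0.00234) and Tnfrsf9 from 64.9, 65.3 and 82.1 to 186, 190 and 132.

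Innate sensors and inflammasome genes had 10 of 27 higher and 1 lower (7 to 11 higher with an array left out). Il18r1, the IL-18 receptor chain, went from 51.2, 23.3 and 31.8 to 1340, 1022 and 1186 (log2 4.57, SE 0.21, adjusted p = 3.02e-05), and its partner Il18rap from 47.8, 55.6 and 69.1 to 203, 172 and 140 (log2 1.35, SE 0.17, adjusted p = 0.00207). The RNA sensor genes Ddx58 and Dhx58 went from 127, 106 and 126 to 245, 265 and 239 and from 50.6, 55.4 and 53.7 to 116, 98.7 and 128. In the MHC list, 4 of 27 were higher and 2 lower, or 2 higher without wild-type 1 or 2. Nlrc5, the activator of class I genes, rose from 71.7, 42.8 and 95.2 to 867, 360 and 406 (log2 2.64, SE 0.37, adjusted p = 0.00367) and the class I gene H2-K1 from 3056, 2847 and 1843 to 10747, 8982 and 5941 (log2 1.71, SE 0.27, adjusted p = 0.0065), both highest on knockout 1. Of cytokine and chemokine genes 3 of 33 were higher, and 1 without wild-type 2 or 3 or knockout 1. Kitl, the ligand of Kit, was among them at 12.4, 15.5 and 14.4 and 56.5, 53.2 and 46.5.

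Matrix and matrix-bound proteins moved in both directions, 7 of 43 higher and 5 lower (4 higher without wild-type 2, and 3 lower without wild-type 2 or knockout 1 or 2). Col18a1, a basement membrane collagen gene, went from 49.9, 49.8 and 43.3 to 997, 1312 and 1094 (log2 4.17, SE 0.13, adjusted p = 6.81e-06), and Emilin1 from 35.3, 34.5 and 25.2 to 337, 408 and 315 (log2 2.95, SE 0.14, adjusted p = 3.44e-05). The heparan sulphate proteoglycan genes Sdc1 and Sdc4 fell, Sdc1 from 433, 441 and 354 to 33.9, 33.8 and 29.04 (at least 11.6-fold) and Sdc4 from 496, 287 and 261 to 40.3, 17.9 and 24.8 (log2 −3.04, SE 0.28, adjusted p = 0.000591). Sdc1 was at background in wild-type thymocytes (29.3, 29.6 and 28.1) and Sdc4 was not (394, 234 and 242). Extracellular proteases and inhibitors had 6 of 35 higher and 0 lower, the same count with any array left out. Serpinb6b, an inhibitor of granule proteases, read 19.9, 17.8 and 30.8 and 1004, 1061 and 1147 (at least 30.3-fold), and Serpinb9, which inhibits granzyme B, 61, 64.7 and 96.8 and 457, 354 and 394 (log2 2.23, SE 0.18, adjusted p = 0.000282). Cst7, a cystatin of cytotoxic cells, went from 126, 96.3 and 66.7 to 932, 788 and 974, and the membrane metalloprotease gene Mmp14 from 55.99, 63 and 80.1 to 353, 361 and 467.

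Coagulation, complement and endothelial genes had 7 of 36 higher and 3 lower, with 0 lower without wild-type 1 and 1 lower without wild-type 2 or knockout 1 or 2. Besides Cd93, Angpt1 and F2r, the thrombomodulin gene Thbd read 17.4, 23.5 and 19.9 and 139, 152 and 149 (at least 4.15-fold), and the P-selectin gene Selp went from 31.3, 30.8 and 34.1 to 266, 139 and 179 (at least 5.32-fold, adjusted p = 0.000886). F13a1, a coagulation transglutaminase, rose from 77.1, 61.3 and 84.3 to 308, 388 and 656 and was highest in wild-type thymocytes (2324, 2243 and 3275). The endothelial markers Cdh5 (18.4, 20.4 and 17.7 and 20.1, 23.7 and 19.8) and Pecam1 (164, 165 and 74.9 and 168, 143 and 122) did not pass. Adhesion and polarity genes of epithelia and neurons had 10 of 38 higher and 4 lower. The protocadherin gene Pcdh7 read 6.33, 5.46 and 6.003 and 65.7, 105 and 74.1 (at least 2.27-fold), the plakophilin genes Pkp4 and Pkp3 rose from 241, 212 and 254 to 990, 751 and 681 and from 93.1, 104 and 71.96 to 336, 253 and 275, and Alcam, a ligand of CD6, from 21.4, 41.1 and 41.4 to 193, 146 and 251.

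Cytoskeletal genes were 6 higher and 5 lower of 47. The unconventional myosin gene Myo5a fell from 180, 266 and 221 to 16.5, 11.04 and 15.5 (at least 6.22-fold) and the talin gene Tln2 from 141, 121 and 110 to 26.5, 30.7 and 45.04, whereas the focal adhesion gene Zyx rose from 59.2, 56.5 and 41.01 to 356, 405 and 448 (log2 2.62, SE 0.15, adjusted p = 7.21e-05) and the non-muscle myosin gene Myh10 from 357, 306 and 389 to 1112, 1210 and 1548. Vesicle traffic genes had 16 of 47 higher and 5 lower, with 10 higher without wild-type 2 and 3 lower without wild-type 1 or 2. Rab4a, a GTPase of fast endosomal recycling, went from 30.7, 28.4 and 41.3 to 1660, 1257 and 1176 (log2 4.80, SE 0.17, adjusted p = 1.04e-05), Rab34 from 43.2, 33.5 and 37.5 to 245, 218 and 181 and Ehd3 from 70.5, 77.8 and 83.8 to 356, 364 and 448. The endosomal syntaxin gene Stx7 fell from 181, 220 and 183 to 37.8, 32.2 and 26.4 (log2 −2.13, SE 0.13, adjusted p = 0.000106).

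Chromatin regulators were covered by 3 lists. Histone methyltransferases and demethylases had 5 of 42 higher and 1 lower, histone acetylation genes 7 of 36 higher and 2 lower, and SWI/SNF and PRC1 subunits 5 of 38 higher and 2 lower. None of these higher counts was stable to leaving out an array: they fell to as few as 1 (without wild-type 1, 2 or 3), 3 (without wild-type 2 or 3 or knockout 1 or 2) and 2 (without wild-type 1, 2 or 3 or knockout 1 or 2). Hdac9, a class II deacetylase gene, read 14.2, 10.7 and 10.6 and 67.6, 68.9 and 104 (at least 2.23-fold, adjusted p = 0.000553), and Hdac5 332, 319 and 268 and 517, 620 and 584. The coactivator gene Ncoa2 rose from 296, 526 and 468 to 1704, 1643 and 1097 (log2 1.76, SE 0.26, adjusted p = 0.00437), the methyltransferase gene Prdm16 from 18.6, 18.02 and 24.3 to 58.8, 62.5 and 109, and the Polycomb genes Pcgf5 and Rnf2 from 640, 518 and 522 to 1028, 1121 and 1250 and from 862, 750 and 723 to 1377, 1550 and 1192. Smyd2, a lysine methyltransferase, fell from 1111, 1038 and 839 to 518, 563 and 451 (log2 −0.94, SE 0.14, adjusted p = 0.00525). Among RNA-binding genes of the fetal to adult stem cell switch 3 of 23 were higher, including the uridylyltransferase gene Tut4 (362, 398 and 390 and 796, 798 and 744) and Rbpms (157, 142 and 77.2 and 1068, 552 and 847).

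Lists with more losses than gains held genes of metabolism, protein turnover and DNA repair. NRF2 and glutathione genes had 7 of 31 lower and 1 higher, or 4 lower without wild-type 1. Glutathione reductase (Gsr) fell from 949, 962 and 1051 to 356, 313 and 320 (log2 −1.54, SE 0.10, adjusted p = 0.000135), and the transferase genes Gsta4 and Gsto1 from 401, 360 and 292 to 102, 80.04 and 82.7 and from 1153, 892 and 738 to 490, 376 and 433. Gpx7, a peroxidase gene, fell from 98.7, 99.5 and 69.5 to 40.7, 26.5 and 25.8, and Gpx3 was the member that rose (33.1, 41.3 and 43.2 and 72.8, 68.4 and 70.5). Wild-type thymocytes had lower levels of Gsr (248, 213 and 236), Gsta4 (67.3, 47.3 and 63.2) and Gsto1 (132, 114 and 112) than either leukaemia group. Iron and haem genes had 7 of 27 lower and 2 higher, with 1 lower without wild-type 1 or 2 and 3 lower without knockout 1 or 2. Flvcr1, a haem exporter gene, fell from 759, 907 and 1013 to 482, 544 and 493, and Tfr2, a transferrin receptor gene, rose from 47.3, 61.5 and 55.3 to 164, 185 and 227 (log2 1.55, SE 0.14, adjusted p = 0.000604).

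Among the remaining lists of this kind the calls were few and depended on single arrays. Mitochondrial dynamics and import genes had 5 of 32 lower and 0 higher at a median of −0.35, with 14 lower under the replicate block and 1 to 9 with an array left out (fewest without wild-type 1 or 2 or knockout 2). Slc25a4, the ADP/ATP carrier gene, fell from 4260, 4195 and 3727 to 2266, 1904 and 2253 (log2 −0.92, SE 0.12, adjusted p = 0.00224). Proteasome genes had 2 of 36 lower and 0 higher at a median of −0.47, and 16 lower under the block and 8 with 75th percentile centring. The ATPase gene Psmc1 read 1806, 1805 and 1746 and 1041, 842 and 939 (log2 −0.92, SE 0.11, adjusted p = 0.00172), and Psmd3 1541, 1496 and 1752 and 882, 944 and 1053. Splicing factors had 5 of 49 lower and 2 higher (17 lower under the block, 11 with 75th percentile centring, 1 to 7 with an array left out, fewest without wild-type 1 or 2 or knockout 2), and Ptbp3, a repressor of exon use, rose from 1657, 1496 and 1459 to 2563, 2788 and 3287. Nucleotide synthesis genes had 5 of 32 lower and 3 higher (13 lower under the block, 9 with 75th percentile centring, 2 to 7 with an array left out, fewest without wild-type 1 or 2 or knockout 2 or 3). Ada, the adenosine deaminase gene, fell from 1260, 1146 and 760 to 168, 77.5 and 101 (log2 −3.05, SE 0.29, adjusted p = 0.00066) and Adssl1 rose from 99.7, 83.8 and 82.9 to 226, 215 and 212. Homologous recombination, Fanconi and mismatch repair genes had 6 of 37 lower and 0 higher, of which 0 to 5 were lower with an array left out (all but wild-type 3 moved the count by more than 1.5 times), so that none of the 6 was called under all fits. Heat shock genes had 1 of 33 higher and 2 lower. The lower count was 9 under the block or with 75th percentile centring, 1 without wild-type 1, 0 without wild-type 2 and 7 without knockout 3.

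Responses to stress were mixed. Hypoxia genes had 6 of 24 higher and 3 lower, 10 higher under the block, and 0 to 3 lower with an array left out (0 without wild-type 1 or 2 and 1 without knockout 1 or 3). Epas1, which encodes HIF-2 alpha, went from 54.03, 32.1 and 38.1 to 382, 388 and 271 (log2 2.66, SE 0.19, adjusted p = 0.000199), and the carbonic anhydrase gene Car9 from 41.01, 40.99 and 39.5 to 168, 222 and 272 (log2 2.04, SE 0.17, adjusted p = 0.000322). Ndrg1 rose from 172, 186 and 277 to 729, 797 and 702. In the unfolded protein response list 3 of 30 were higher and 1 lower, or 5 and 4 under the block and 1 higher without wild-type 2 or knockout 2, with the sensor gene Ern1 at 91.5, 75.5 and 50.5 and 244, 295 and 292 (log2 1.75, SE 0.19, adjusted p = 0.00116). Autophagy and lysosome genes had 6 of 36 higher and 2 lower, or 3 higher without wild-type 2. Gabarapl1, an autophagosome gene, rose from 105, 116 and 106 to 435, 364 and 342 (log2 1.66, SE 0.12, adjusted p = 0.000188), the lysosomal cholesterol exporter gene Npc1 from 109, 73.1 and 76.8 to 245, 274 and 213, and the hexosaminidase gene Hexa fell from 339, 291 and 318 to 131, 105 and 174. Of circadian genes 2 of 19 were higher and 1 lower, Cry1 at 103, 95.7 and 135 and 296, 314 and 238 and Clock at 119, 110 and 115 and 67.7, 77.2 and 71.02. Core and linker histones had 1 of 10 higher and 2 lower, or 0 lower without wild-type 2 and 1 without wild-type 3 or knockout 1 or 2, the higher being the histone variant gene Macroh2a1 (2843, 2781 and 3463 and 4746, 5909 and 6591).

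**Figure D4:**
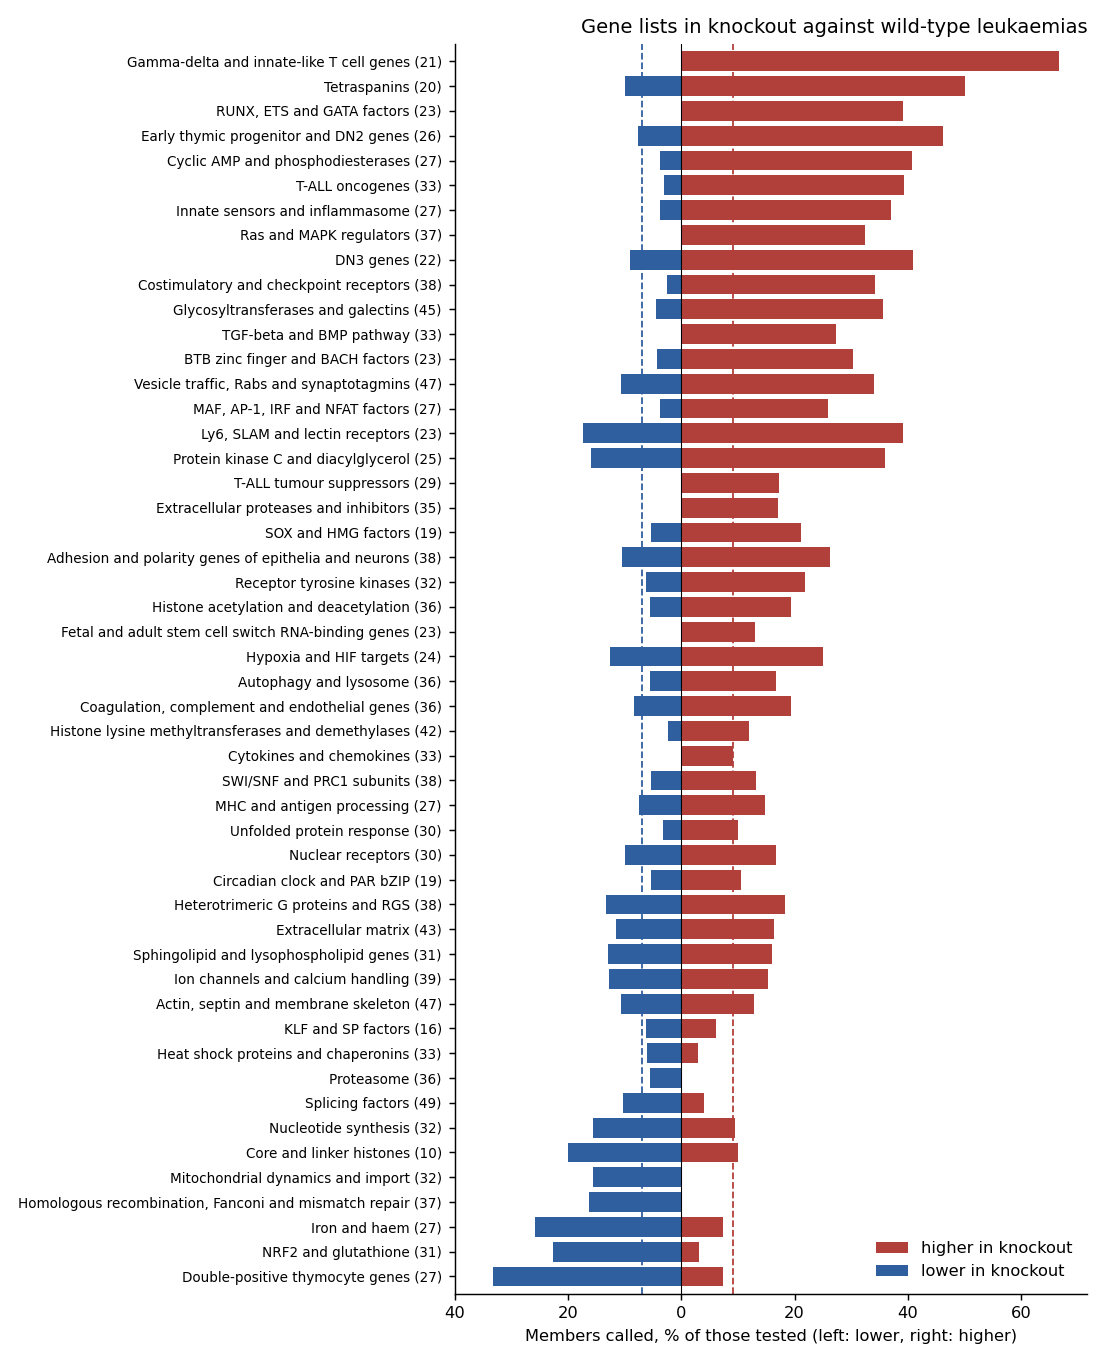
Share of the tested members of each of 50 gene lists (number tested in brackets) that was called higher (red, right) or lower (blue, left) in knockout leukaemias; dashed lines give the shares over all 14949 genes, 9.22% and 6.94%. Gamma-delta and innate-like genes have the highest share of gains (66.7%) and double-positive thymocyte genes the highest share of losses (33.3%).

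In all, 40 of the 50 lists had a larger share of higher members than the 9.22% of all genes, and 24 a larger share of lower members than 6.94%. These lists hold genes picked for a role in this tissue or in cell regulation and share members, so they are not a sample of the genome. Where the smaller of a list's 2 counts was 1 or 2, leaving out an array lowered it in 16 of 26 lists. The replicate block moved further counts by more than 1.5 times. Under it 5 circadian, 4 NRF2 and glutathione, 5 fetal to adult switch and 2 heat shock genes were higher. Lower genes under it numbered 5 in the autophagy list, 4 in the histone acetylation and the SWI/SNF lists, 3 among MAF, AP-1, IRF and NFAT factors, and 2 in the SOX, histone methyltransferase and Ras lists. It also gave 1 lower gene each among TGF-beta genes, T-ALL tumour suppressors and extracellular proteases. Centring on the 75th percentile gave 3 higher SWI/SNF and PRC1 genes, 4 lower glycosyltransferase genes, 2 higher genes each in the KLF and SP and the NRF2 lists, 2 lower genes each in the SOX and the unfolded protein response lists, and 1 lower gene each in the Ras and the tumour suppressor lists.

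Some genes crossed from background to a clear level. A set of 60 genes was below the control level on all wild-type arrays and above 4 times it (141) on all knockout arrays, and 23 were the reverse. Their median levels over genes were 19.9 and 389 for the gained, and 273 and 21.0 for the lost genes. In wild-type thymocytes 28 of the 60 gained genes were below the control level on all 3 arrays and 8 above 4 times it. Of the 23 lost genes 8 were below it and 7 above 4 times it. The groups were defined by the levels in the leukaemias, so only the thymocyte levels are a separate measurement. The variable segment gene Trbv13-2, chosen after its values were seen, was among the 8 gained genes that thymocytes also carried. It read 14.3, 13.03 and 16.2 in wild-type leukaemias, 703, 767 and 747 in knockout leukaemias and 495, 514 and 300 in wild-type thymocytes. Which rearranged segments the leukaemias carried was not tested.

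**Figure D5:**
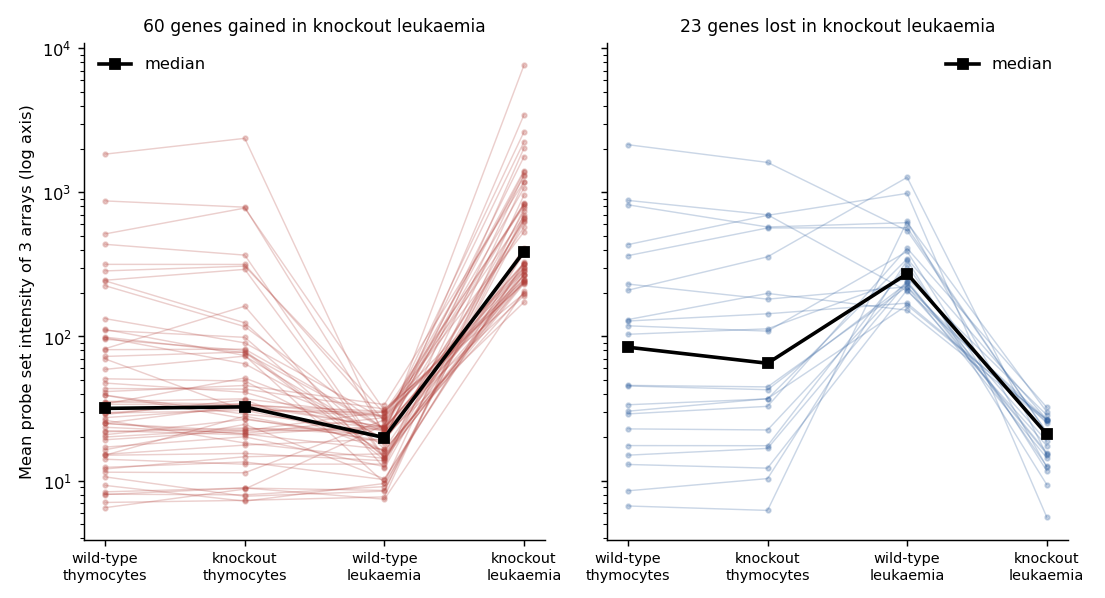
Mean intensity of 3 arrays (log axis) in wild-type and knockout thymocytes and leukaemias for the 60 genes gained and the 23 lost in knockout leukaemia; each thin line is a gene and black squares are medians over genes. The median of the gained genes was 31.7 in wild-type and 32.5 in knockout thymocytes, and that of the lost genes 84.3 and 65.2.

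Few genes passed between the thymocyte genotypes. In this comparison 4 of 14949 genes were called (0.0268%). Poly-A signal was present on wild-type thymocyte arrays 1 and 2 and on no other thymocyte array. Gapdh ratios ran from 1.08 to 3.68 in wild-type and from 1.12 to 3.33 in knockout thymocytes. How far this spread limits the count was not tested. The effect of genotype differed between leukaemia and thymocytes in 1885 genes (12.6%) by the interaction test, 1689 of them among the 2415 leukaemia calls (69.9%). The test reuses the leukaemia values by which these calls were made, so their share is no separate support. The same holds for the 40 named gains and losses, all of which passed it except Mbd2. Mbd2 itself fell in both (adjusted p of the difference = 0.818). Xist read 28.7 to 45.7 on the thymocyte arrays of both genotypes, so sex went with genotype only in the leukaemias. The interaction test therefore cannot tell a difference by genotype from one by sex. Over all genes, wild-type thymocytes were nearer to wild-type than to knockout leukaemias in 44.4%. That share was 62.0% of the genes called higher and 38.9% of those called lower. By correlation over all genes, wild-type thymocyte arrays lay at 0.902 to 0.917 with wild-type and at 0.894 to 0.908 with knockout leukaemias.

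Genes called in the same direction also lay side by side in the genome. By the gene order of GRCm38.p6, the longest run was 8 tested neighbours on chromosome 7, all higher: Ubqln5, Ubqlnl, Trim34a, Trim5, Trim12a, Trim12c, Trim30a and Trim30d. TRIM proteins of this cluster act against viruses, and several copies are close enough in sequence to share probe sets. Ubqlnl read 16.02, 19.6 and 22.7 and 201, 258 and 275 (at least 6.88-fold), Trim34a 78.8, 78.3 and 71.04 and 591, 460 and 358, and Trim30a 134, 138 and 180 and 938, 822 and 1110 (log2 2.55, SE 0.16, adjusted p = 0.000107). Trim5 and Ubqln5 lost their calls with an array left out (wild-type 1 or 2 for Trim5, with adjusted p up to 0.0702, and also wild-type 3 and knockout 2 for Ubqln5, up to 0.0733).

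Runs of 5 higher neighbours were found on chromosomes 1, 14 and 6. On chromosome 1 Bcl2 lay between Zcchc2, Phlpp1, Kdsr and Vps4b. The phosphatase gene Phlpp1 went from 88.95, 114 and 94.3 to 480, 399 and 509 (log2 2.06, SE 0.14, adjusted p = 0.000138) and Zcchc2 from 264, 210 and 174 to 888, 1142 and 767, whereas Kdsr lost its call without wild-type 2 (adjusted p = 0.0524) and Vps4b when any of the 6 arrays was left out (up to 0.102). On chromosome 14 the receptor genes Gpr18 and Gpr183 rose from 68, 40.4 and 47.8 to 502, 368 and 344 and from 16.2, 18.7 and 19.3 to 166, 129 and 78.9, next to Dock9 (362, 282 and 320 and 713, 734 and 808), and to Ubac2 and Tm9sf2, which each lost their calls without 5 of the 6 arrays (up to 0.132 and 0.120). On chromosome 6 the lymphocyte GTPase genes Gimap5 and Gimap3 rose from 155, 89.99 and 122 to 350, 433 and 348 and from 65.8, 90.9 and 57.7 to 275, 327 and 194, with the membrane genes Tmem176b (122, 71.7 and 89.3 and 2739, 2089 and 3082) and Tmem176a (77.6, 114 and 78.6 and 682, 541 and 582) beside them. Gimap1 completed this run and lost its call without wild-type 2 or 3 or knockout 1 or 2 (up to 0.0928). The longest run of lower genes was Fh1, Kmo, Opn3 and Chml on chromosome 1, in which Opn3 fell from 317, 234 and 282 to 88.8, 114 and 94.5 (log2 −1.35, SE 0.14, adjusted p = 0.00111) and Kmo from 87.04, 74 and 67.4 to 32.9, 27.4 and 36.4. Fh1 lost its call without 5 of the arrays (up to 0.097) and Chml without wild-type 2 or knockout 2 (up to 0.069).

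Chromosomes differed in their shares of called genes, and these differences were not tested. Medians were taken over the 8806 genes whose mean over the leukaemia arrays was well above the control level. By chromosome the median log2 difference ran from −0.133 on chromosome 19 to 0.036 on chromosome 18, against −0.064 over all of these genes. The share called higher ran from 6.2% on chromosome 11 to 13.5% on chromosome 1, and the share called lower from 5.1% on chromosome 18 to 9.0% on chromosome 11.

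Tested probe set by probe set, 2103 of 27530 single-gene probe sets outside X and Y were higher (7.64%) and 1442 lower (5.24%). With the replicate number as a block 3035 were higher and 2814 lower, and without wild-type 1, wild-type 2 or knockout 2 the lower calls numbered 760, 637 and 872. Of 7005 genes with several tested probe sets, 200 had all of them called higher and 113 all called lower, while 769 had a mix of higher and not called and 616 of lower and not called. Called genes had 2471 other probe sets, of which 2214 had the sign of the gene and 837 the same call. Of the 1005 among these that exceeded 4 times the control level on an array, 960 had the same sign.

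Probe sets of 3 genes were called in opposite directions. Mycn, the MYC-family gene that fell in the gene-level fit, read 10076, 9674 and 8616 in wild-type and 5651, 6356 and 4822 in knockout leukaemias by its brightest probe set, and 21.1, 27.6 and 32.4 against 62.9, 76.9 and 52.0 by a dim one. Auh, an RNA-binding enzyme of leucine breakdown, fell by a probe set at 486, 456 and 338 against 281, 235 and 170 and rose by another at 71.4, 67.8 and 95.7 against 233, 248 and 285. Ramp1, a receptor-modifying protein gene, fell by a probe set at 70.2, 71.5 and 60.8 against 45.6, 40.3 and 47.6 and rose by one at 35.3, 31.9 and 23.2 against 67.3, 58.6 and 74.2. Which transcripts the probe sets of each pair read was not tested.

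Spread within the groups was alike. The median SD over genes was 0.154 log2 in wild-type and 0.166 in knockout leukaemias. The largest ranges within the knockout group were those of Iigp1, an interferon-induced GTPase gene, at 1034, 89.7 and 137, of Vwce at 595, 250 and 71.2, of the muscle cytochrome oxidase subunit gene Cox6a2 at 189, 262 and 1187, of the immediate early gene Fosb at 52.4, 89.6 and 384 and of the neutrophil protease gene Ctsg at 29.1, 23.97 and 201. In the wild-type group they were Cenpb (288, 206 and 57.7), Exosc3 (886, 684 and 203), Rpl27a (280, 344 and 1202), Bbip1 (544, 440 and 1814) and Rabac1 (1090, 823 and 261). For these 5 wild-type 3, the array without poly-A signal, stood apart from wild-type 1 and 2, below them for Cenpb, Exosc3 and Rabac1 and above them for Rpl27a and Bbip1. None of the 5 passed the test between genotypes. Of the 5 with the largest knockout ranges Vwce passed (adjusted p = 0.0431), and it lost its call without 5 of the 6 arrays, all but knockout 3 (up to 0.14). With the replicate block Iigp1, Fosb, Exosc3 and Bbip1 passed (adjusted p 0.023, 0.0293, 0.026 and 0.00358), as did the neutrophil markers S100a8, S100a9, Ngp and Camp (0.0139, 0.0135, 0.00748 and 0.00781), Cd247 (0.0244), Cd7 (0.0467) and Klf1 (0.0313).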

How the data were processed

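RNA of 12 samples, 7 µg each per the labels, was read on 1 Affymetrix array per sample. The authors deposited a linear intensity for each probe set; how probe sets were summarised and arrays normalized is not given in the sources used here. Values ran from 3.07 to 21620, with array medians of log2 within 0.0752 of each other. Arrays give no read depth, so their number limits the precision.

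Probe sets tied to 1 gene numbered 34945 of 45101 (34741 matched RefSeq). The probe set with the highest mean over 12 arrays stood for each of 18194 genes. Genes above an array's 25th percentile on at least 3 arrays were tested (15420), the 6 leukaemia arrays being fitted without covariates as log2(intensity + 16) in limma 3.58.1 (R 4.3.3; figures in matplotlib 3.10.9 on Python 3.11.15). Benjamini-Hochberg adjustment covered all 15420 genes, and 471 X and Y genes were left out of counts. On simulated data with 15420 genes, 67 of 100 genes changed by 1 log2 and 88 of 100 changed by 2 log2 were called, with 6 false calls. The simulated noise was independent between arrays, and far fewer genes were changed than were called here. These rates may therefore not hold for the real arrays.

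The titles number the replicates in both genotypes. Deviations from the group means of samples with the same number correlated at 0.40, 0.24 and 0.55. Those of unlike number ran from −0.49 to 0.22. By the criterion used (every pair above 0.1), samples of the same number were treated as paired in the fits with a block. Wild-type 2 with knockout 1, at 0.22, passed that value too. Samples numbered 1 shared the poly-A signal and samples numbered 3 its absence. For these, number and poly-A set cannot be told apart. The labels do not say what a number shares. Fits with the replicate number as a block are printed where a call or a count changed by more than 1.5 times.

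Genes named were Mbd2, the 20 largest gains and 20 largest losses among called genes whose groups did not overlap, up to 6 called members per list by smallest p (otherwise the 2 with the smallest p), genes with probe sets called in opposite directions, the longest runs of called neighbours, and the widest ranges within a group. Genes with clone-type names, such as Gm or Rik symbols, were left out of the largest gains, losses and ranges. Gm266, called lower at log2 −4.49, was thus not among the 20 losses. Among list members, those that kept their call with each array left out were preferred. Members, lists and this rule were chosen with earlier results of these data known. A further gene list is not reported here. Alternatives covered scaling, filter, added constant, probe set summary, weights, blocks, samples fitted and each array left out.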

Additional observations from a re-analysis of the deposited data

Results flagged for a closer look

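The effect of the genotype differed between leukaemias and thymocytes in 1885 genes outside X and Y, by the interaction term of a limma fit on all 12 arrays (adjusted p under 0.05). Of these 1689 were also called between the leukaemias, by a test that uses the same leukaemia values, and 1 between the thymocytes. Sex went with genotype in the leukaemias and not in the thymocytes, so the interaction term cannot tell sex and genotype apart. Among array features with no gene name, which entered no comparison of named genes, 452 were higher and 177 lower in knockout leukaemias, of 6343 tested.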

How the results depend on the processing

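Against 1378 genes higher and 1037 lower, the alternatives gave 1213 to 1878 higher and 899 to 1880 lower, apart from the fit within the 3 arrays without poly-A signal, which gave 0 in both directions (1968 genes had an unadjusted p under 0.05 in limma; that fit has 1 wild-type array). The replicate block gave 1880 lower genes and 2814 lower probe sets. Centring on the 75th percentile gave 1604 and 2227, and it moved the median log2 of all genes from −0.058 to −0.131. Leaving out each array in turn gave 853 to 1392 genes higher, 517 to 1021 genes lower, 1176 to 2058 probe sets higher and 637 to 1398 probe sets lower, in each case lowest without wild-type 2. The cause of these shifts was not tested. Higher genes made up 57.1% of the calls, 45.1% with 75th percentile centring and 50.0% with the block. With the mean of a gene's probe sets 2142 of 2415 called genes were called again (88.7%) and 2411 kept their direction. That mean includes the probe set by which the gene was called. Of 314 named genes that were called, 234 kept the call with any array left out. Most were named for a large change, a small p or a kept call, so this share does not describe all calls. Of all 2415 calls, 1366 (56.6%) were kept without wild-type 2, the fewest, and 1995 (82.6%) without knockout 3, the most. Sex cannot be told apart from genotype, and 3 arrays a group limit what small differences can pass.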
